A study of Mus musculus with 2 samples.

Results

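The 9 genes described here mark the glutamatergic lineages of the cerebellum: Lmx1a, Olig3, Eomes, Tbr1, Meis1, Meis2, Slc17a6, Slc17a7 and Calb2. They are 9 of 21670 protein-coding genes and were listed by name, with no threshold on a measured value. For each gene, all deposited peaks of DNase I accessibility were taken within 500 bp of a coding start, meaning the first base of an annotated protein-coding transcript, in the gene body, and in the 50 kb on each side. DNase-seq was done on cerebellum tissue of male B6CASTF1/J mice, a hybrid of the C57BL/6J and CAST/EiJ strains, at 4 days of age. There was 1 group of 2 libraries, numbered by the labels as biological replicates 1 and 2, and the label of each names 3 males. With 1 group, no condition could be compared and no test was made. Replicate 1 is set against replicate 2 throughout, and the genes against all coding genes.

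The rhombic lip is the dorsal rim of the developing hindbrain that gives rise to the glutamatergic neurons of the cerebellum. It produces the large projection neurons of the cerebellar nuclei first, then the granule cells, and late in its life the unipolar brush cells, excitatory interneurons of the granular layer. In the first days after birth granule cells and their progenitors are by far the most numerous of these, and the other lineages are small fractions of the tissue. DNase I cuts open chromatin, so a peak usually marks a stretch where regulatory proteins hold nucleosomes aside, and a footprint is a short protected stretch inside one. In bulk tissue, fewer cells of a type and less open chromatin per cell cannot be told apart.

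Replicate 1 had 61896 peaks on the less strict deposited list and 36611 on the stricter one, and replicate 2 had 131518 and 79019. The peak value is the authors' signal, normalised for depth by a factor not given in the sources used here. Its median over all peaks was 0.787 in replicate 1 and 0.625 in replicate 2. At sites found in both libraries the genome-wide median log2 difference, replicate 1 minus replicate 2, was -0.63, and 19.8% of those sites were higher in replicate 1. Markers of the labelled tissue had start peaks in both libraries for 6 of 8 genes, Barhl1 had none in either library, and Pax6 had one in replicate 2 alone with 3.66. Markers of forebrain cortex, which also uses Tbr1, Eomes and Slc17a7, had start peaks for 4 of 7 genes in replicate 1 and 7 of 7 in replicate 2, with summed values of 4.06 and 17.3. Among them, Emx1 and Neurod6 had 1.41 and 2.71 in replicate 2 and no peak in replicate 1. The summed values of the cerebellum markers were 9.75 and 15. No choroid plexus marker of 4 had a start peak in either library. Meninges markers had 1 of 4 in replicate 1 and 3 of 4 in replicate 2, and brainstem markers 2 of 4 and 1 of 4. Over all coding genes, 59.9% had a start peak in replicate 1 and 65.0% in replicate 2.

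At their coding starts, 4 of the 9 genes (44.4%) were open in both libraries: Calb2, Meis2, Meis1 and Slc17a6. Over all coding genes the share was 58.9%. In replicate 1 the same 4 genes had a start peak (all genes 59.9%), and in replicate 2 there were 7 (all genes 65.0%). Tbr1, Slc17a7 and Lmx1a were open in replicate 2 alone (all genes 6.10%), and Eomes and Olig3 had no start peak in either library (all genes 34.0%). The calcium buffer, both Meis factors and one glutamate transporter had an open start in each library, and the early rhombic lip factors, both T-box factors and the other transporter did not.

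Calb2, which encodes the calcium-binding protein calretinin found in unipolar brush cells, had the highest start value of the 9 genes, 2.53 in replicate 1 and 3.67 in replicate 2 (mean 3.10 ± 0.804 SD, n = 2). These stood above 60.2% and 46.7% of all open starts of each library. Meis2, a homeodomain factor of the TALE class expressed in granule cell and nuclear lineages, had 1.14 and 2.86 (2.00 ± 1.22). Its relative Meis1, a factor of granule cells, had 1.57 and 2.10 (1.83 ± 0.378). Slc17a6, which encodes the vesicular glutamate transporter VGLUT2, had 0.981 and 0.825 (0.903 ± 0.110). The log2 differences were -0.54 for Calb2, -1.33 for Meis2, -0.42 for Meis1 and 0.25 for Slc17a6, so Slc17a6 alone of these was higher in replicate 1 as deposited. After division of each library by its median peak value, which lowers every difference by 0.33, Slc17a6 was at -0.08, so its direction turned. The median over the 4 genes was -0.48, and over the 12774 genes open in both libraries it was -1.02. If 1 step of the signal is 1 cut, which no source states, the exact 95% Poisson intervals were 0.831 to 1.15 and 0.686 to 0.983 for Slc17a6 and overlapped. Those of Calb2, 2.28 to 2.79 and 3.37 to 3.98, did not, and they cover counting error only.

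Among the genes with a start peak in replicate 2 alone, Tbr1, a T-box factor of glutamatergic nuclear neurons and of cortical neurons, had 1.66. Slc17a7, which encodes VGLUT1, the transporter of mature granule cells, had 0.659. Lmx1a, a LIM-homeodomain factor of the roof plate, rhombic lip and unipolar brush cells, had 0.386. These stood above 25.5%, 9.41% and 3.14% of the open starts of replicate 2, and of the 3 only the Tbr1 peak was on the stricter list, where 8.57% of all genes were open in replicate 2 alone. The 4 genes open in both libraries were so on the stricter list too (all genes 52.3%). Within 2000 bp of a start, 7 of the 9 genes had peaks in both libraries (all genes 62.2%), though at Lmx1a those were separate peaks. In the authors' deposited false discovery rates of the cut rate, the lowest q-value at these starts in replicate 2 was 5.79e-07 for Tbr1, 0.0272 for Slc17a7 and 0.0156 for Lmx1a, with no interval listed in replicate 1. By comparison, Calb2 had 2.67e-15 and 2.82e-39. Eomes, the T-box factor of unipolar brush cells, and Olig3, a bHLH factor of rhombic lip progenitors, had no interval under 0.05 at their starts in either library, where 61.1% and 65.8% of all coding genes had one.

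The starts without a shared peak included both the richest and the poorest of the 9 in CG dinucleotides. Lmx1a had the most, 79 within 500 bp of the start. With all genes in 10 equal groups by this count, Lmx1a was in group 9 from the lowest, where 93.4% of starts were open in both libraries. Eomes and Slc17a7 had 47 each, against 52 at Meis2, 46 at Calb2, 43 at Meis1 and 41 at Slc17a6, the starts open in both libraries. The group of Meis1, number 6, was open in both libraries at 86.8% of its starts. Olig3 had 34, in a group with 68.0%, and Tbr1 had 25, in a group with 33.8%.

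**Figure D1:**
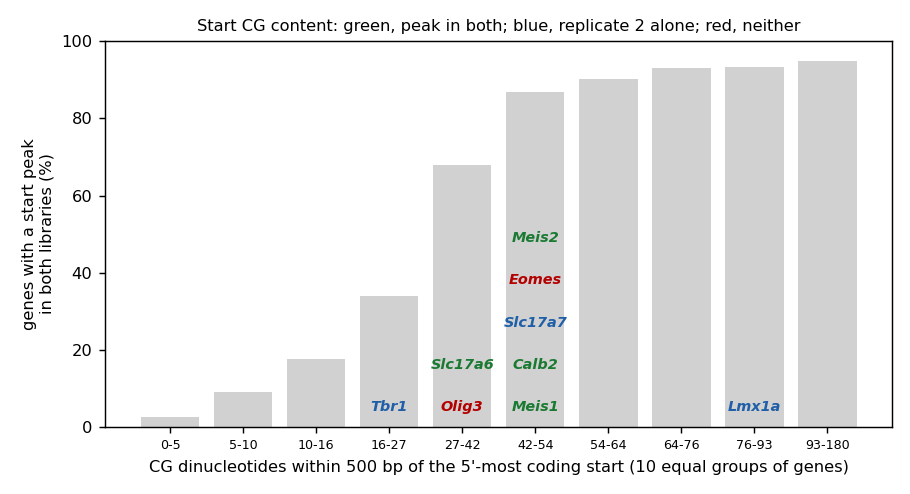
Share of coding starts open in both libraries (y axis, percent) for 10 equal groups of all coding genes by CG dinucleotides within 500 bp of the start (x axis); the 9 genes are named at their group. Lmx1a stands in the group with 93.4% and Tbr1 in the group with 33.8%, and neither is open in both libraries.

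The 9 loci held 190 peaks, 78 in replicate 1 and 112 in replicate 2, and the stricter list held 39 and 66 there. Of the peaks of replicate 1, 53 (67.9%) overlapped a peak of replicate 2 by at least 1 bp, beside 71.1% over the genome. Of those of replicate 2, 50 (44.6%) overlapped one of replicate 1, beside 33.4%. The exact 95% interval of the 67.9%, 56.4% to 78.1%, counts each peak as independent. Neighbouring peaks of 1 locus are not, and the interval measures no spread between animals. Merged, the peaks of both libraries made 135 sites: 49 in both libraries, 25 in replicate 1 alone and 61 in replicate 2 alone. The shared sites were 36.3% of the total, beside 28.9% over the genome. Both libraries had a peak of the stricter list at 26 of the 49 shared sites. Sites of replicate 2 alone were 45.2%, and over the genome they were 86734 of 146797. At 11 sites the peak lay at the start of another gene, and 10 of these were shared. The other 124 sites had 39 shared ones (31.5%).

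By position, sites at the genes' own starts were shared at 6 of 10 (genome 64.6%) and sites in the gene bodies at 8 of 42, or 19% (genome 20.9%). In the bodies, 29 of 42 sites (69.0%) were found in replicate 2 alone, near the 66.6% of gene body sites over the genome. Outside the genes and away from other starts, 25 of 72 sites were shared (34.7%). Over the genome, sites outside coding starts and coding gene bodies were shared at 21.3%. The sets differ, since some of the 72 lay inside other coding genes, among them Tead2 and Ccdc155. Of the 49 shared sites, 13 (26.5%, genome 19.8%) were higher in replicate 1 and 36 in replicate 2 as deposited. After division by the library medians the counts were 6 and 43, and over the genome 9.88% were higher in replicate 1. The median log2 difference as deposited was -0.35 (SD 0.69), beside -0.63 (SD 0.71) for all 42411 shared sites of the genome. By position it was -0.48 at the genes' own starts and -0.98 at the 10 sites at other genes' starts, beside -0.87 at coding starts over the genome. It was -0.27 in the gene bodies, beside -0.45. Outside the genes and away from other starts it was -0.14, and -0.52 over genome sites outside starts and gene bodies, sets that differ as above.

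**Figure D2:**
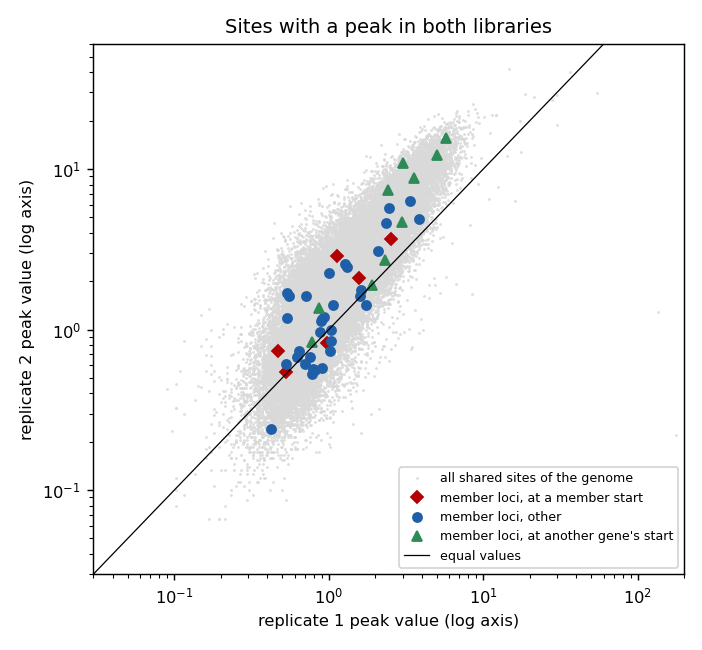
Peak value in replicate 1 (x axis, log) and replicate 2 (y axis, log) of the 49 shared sites of the 9 loci, over all 42411 shared sites of the genome in grey; the line marks equal values. Of the 49 sites, 36 lie above the line, higher in replicate 2, and 13 below it (26.5%, genome 19.8%). Division by the library medians leaves 6 higher in replicate 1 (genome 9.88%).

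**Figure D3:**
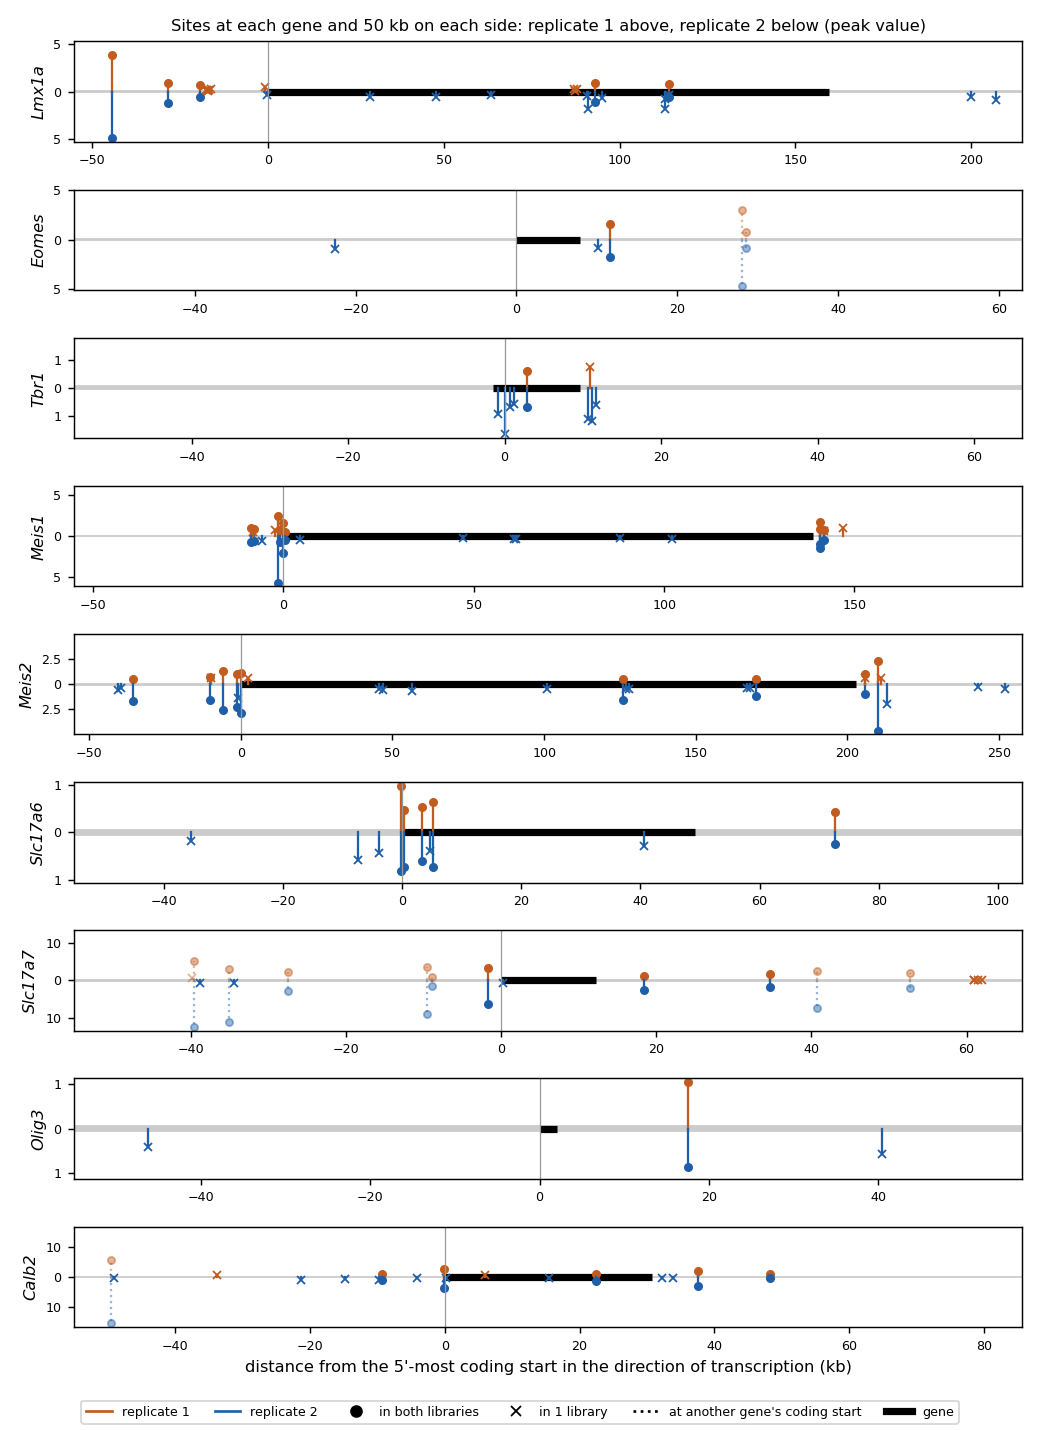
Sites at each of the 9 genes by distance from the 5'-most coding start in kb (x axis) with peak value (y axis, scale differs by gene), replicate 1 upwards and replicate 2 downwards; filled circles are in both libraries, crosses in 1, dotted stems lie at another gene's start and black bars are the gene. The introns of Meis1 hold crosses of replicate 2 alone, and Eomes and Olig3 have their own shared site beyond the gene at +11.6 and +17.5 kb.

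Positions below are kb from the 5'-most coding start in the direction of transcription, negative upstream, on mouse assembly mm10 (GRCm38). Gene ends follow the GENCODE annotation. Sequences come from the RefSeq copy of the GRCm38 reference, which is C57BL/6J and not the CAST/EiJ allele, and are written 5' to 3' on the strand of the gene, without exons of protein-coding genes. Capitals mark bases inside a footprint of both libraries unless stated otherwise. Letter matches were searched on both strands and describe the reference sequence. A match is not shown to be a binding site, and all footprints are the authors' positions with no score.

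Among the early rhombic lip and roof plate factors, Lmx1a (chromosome 1, 167689237 to 167848741, plus strand) had 26 sites: 5 shared, 9 in replicate 1 alone and 12 in replicate 2 alone. Of 10 equal groups of genes by locus length, that of Lmx1a had a median of 20 sites and 5 shared. The highest shared site, at -44.1 kb with 3.85 in replicate 1 and 4.88 in replicate 2, lay nearer to the start of Rxrg, 26692 bp away. The other upstream shared sites were at -28.3 kb (0.935 and 1.19) and -19.3 kb (0.697 and 0.612). Inside the gene, shared intronic sites stood at +93.1 kb (0.897 and 1.12) and +114 kb (0.813 and 0.559). The highest intronic sites of replicate 2 alone, at +91.0 kb with 1.82 and at +113 kb with 1.87, exceeded all shared intronic ones of the gene. Near the start, the peak of replicate 2 had 0.386, and a separate peak of replicate 1 alone at -0.638 kb, just outside 500 bp, had 0.497. Of the 9 sites of replicate 1 alone, 6 had values under 0.25, where 10.5% of all replicate 1 peaks lay.

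A pair of intronic stretches of Lmx1a are shown because one was open in both libraries with a footprint of the same place and the other was the strongest of replicate 2 alone. They lie at chr1:167782201-167782380 and chr1:167802501-167802720. In the second, capitals mark footprints of replicate 2, the library with the peak.
Lmx1a intron, +93.1 kb: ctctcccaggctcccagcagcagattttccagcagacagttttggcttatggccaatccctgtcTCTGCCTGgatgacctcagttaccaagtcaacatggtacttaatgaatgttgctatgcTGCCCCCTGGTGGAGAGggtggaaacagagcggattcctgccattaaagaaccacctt
Lmx1a intron, +113 kb: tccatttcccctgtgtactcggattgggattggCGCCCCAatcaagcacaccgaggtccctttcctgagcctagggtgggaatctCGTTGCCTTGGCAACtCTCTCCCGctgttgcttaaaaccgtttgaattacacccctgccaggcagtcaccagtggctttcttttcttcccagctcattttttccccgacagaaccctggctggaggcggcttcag
In the first, the letters GCCCCCTGGTGG at bases 124 to 135 match a CTCF core in reverse complement (CC, 3 bases of any kind, AG, 2 of any kind, GGC), with all 12 bases in capitals. The match TTGGCTTATGGCCAA to the nuclear factor I palindrome (TTGGC and GCCAA 5 bases apart) at bases 42 to 56 had 0 bases in capitals. In the second, GTTGCCTTGGCAAC at bases 87 to 100 matches the RFX palindrome (GTTGCC and GGCAAC 2 bases apart) with all 14 bases in capitals. That palindrome was in 0.0858% of 200 bp windows at replicate 1 peaks and in 0.142% at replicate 2 peaks, the CTCF core in 18.7% and 14.5%, and the nuclear factor I palindrome in 0.0891% and 0.154%.

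Olig3 (chromosome 10, 19356533 to 19358604, plus strand) had 3 sites in its locus and 1 shared. The shared site, the only place in this locus open in both libraries, stood at +17.5 kb downstream of the gene and had 1.04 in replicate 1 and 0.851 in replicate 2. On the stricter list it had a peak in replicate 2 alone. The sites of replicate 2 alone lay at -46.3 kb with 0.406 and +40.5 kb with 0.572, and replicate 1 had no other peak within 50 kb of the gene. Its group of loci of similar length had a median of 7 sites and 2 shared.

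Of the other genes listed for the rhombic lip and roof plate, 3 of 8 had start peaks in both libraries, 4 in replicate 1 and 5 in replicate 2, beside 58.9% of all genes in both. Atoh1, the bHLH factor that specifies granule cells, had 0.587 and 0.492, Wls, a Wnt secretion factor of the rhombic lip, had 0.677 and 1.02, and Lmx1b, a relative of Lmx1a, had none.

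Among the T-box factors, Tbr1 (chromosome 2, 61802930 to 61814114, plus strand) had 9 sites, of which 7 were in replicate 2 alone. Over the genome 86734 of 146797 sites were in that library alone. The only shared site of Tbr1 was in a coding exon at +2.85 kb, with 0.619 in replicate 1 and 0.679 in replicate 2. That site was on the stricter list in neither library. In replicate 2 alone, peaks stood before and after the start at -0.827 kb (0.938), +0.677 kb (0.692) and +1.2 kb (0.572), beside the start peak of 1.66. Past the gene end, replicate 2 had peaks at +10.7 kb (1.12), +11.2 kb (1.20) and +11.7 kb (0.605), and replicate 1 had one between them at +10.9 kb with 0.742. The forebrain cortex markers summed to 4.06 in replicate 1 and 17.3 in replicate 2, with an absent peak adding nothing. The cerebellum markers summed to 9.75 and 15. Over all 12774 genes open in both libraries, the median log2 difference at the start was -1.02. The part of the forebrain cortex markers in the Tbr1 values was not tested.

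Eomes (chromosome 9, 118478212 to 118486132, plus strand) had 5 sites and 3 shared, but 2 of the 3 lay at the start of Golga4, whose higher site had 2.96 and 4.69. The remaining shared site lay at +11.6 kb, downstream of Eomes, with 1.62 in replicate 1 and 1.77 in replicate 2. Replicate 2 alone had peaks at -22.6 kb (0.978) and at +10.2 kb (0.785), inside Gm33460. No peak of either library lay inside Eomes itself. The downstream stretch, chr9:118489761-118489920, is shown because its longest footprint had the same ends in both libraries.
Eomes downstream, +11.6 kb: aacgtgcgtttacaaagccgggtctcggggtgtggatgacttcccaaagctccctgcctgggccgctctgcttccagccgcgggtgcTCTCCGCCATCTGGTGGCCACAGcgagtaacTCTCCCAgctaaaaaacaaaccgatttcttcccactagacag
The longer run in capitals holds GCCATCTGGTGG at bases 93 to 104, a reverse match to the CTCF core with all 12 bases in capitals. The T-box letters AGGTGTGA were in the central 200 bases of 0 of the 135 sites, beside 0.622% and 0.579% of all peak windows.

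The Meis genes had the most shared sites of the 9 away from other genes' starts, in loci of 239 kb at Meis1 and 303 kb at Meis2. Each had more shared sites than 74.7% of the genes with loci of similar length. Meis1 (chromosome 11, 18879817 to 19018985, minus strand) had 20 sites, 9 of them shared, where its group of loci of similar length had a median of 5 shared. Its highest site was not at the start but at -1.52 kb, with 2.46 in replicate 1 and 5.71 in replicate 2. Of the 9 shared sites, 5 were higher in replicate 1, among them -7.71 kb (0.903 and 0.579), -8.51 kb (1.01 and 0.732) and +141 kb, beyond the gene end (1.74 and 1.43). The median log2 difference was 0.15 as deposited, beside -0.63 over the genome. After division by the library medians it was -0.18, beside -0.96, and 3 of the 9 sites were higher in replicate 1. In the introns there were 6 sites, all in replicate 2 alone, with values of 0.259 to 0.459. Over the genome 66.6% of gene body sites were in that library alone.

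The start and the -1.52 kb site of Meis1, chr11:19018986-19019160 and chr11:19020381-19020620, are shown because they were the gene's strongest sites near its start.
Meis1 start: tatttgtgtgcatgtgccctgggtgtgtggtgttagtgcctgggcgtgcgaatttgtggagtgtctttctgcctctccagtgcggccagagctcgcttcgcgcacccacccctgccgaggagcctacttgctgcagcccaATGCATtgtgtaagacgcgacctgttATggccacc
Meis1 upstream, -1.52 kb: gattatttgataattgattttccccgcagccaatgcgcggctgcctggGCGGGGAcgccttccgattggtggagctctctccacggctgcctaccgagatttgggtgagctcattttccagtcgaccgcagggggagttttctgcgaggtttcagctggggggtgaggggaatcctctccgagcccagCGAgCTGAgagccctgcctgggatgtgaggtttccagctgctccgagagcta
In the peak over the first start both footprints of replicate 1 overlapped one of replicate 2, and at the weaker start site at 0.314 kb none did. The upstream stretch holds the E-box letters CAGCTG at bases 153 to 158 and 223 to 228, outside the capitals, and those letters were in 16.2% and 17.5% of all peak windows.

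Meis2 (chromosome 2, 115863064 to 116065839, minus strand) had 27 sites and 9 shared, where its group of loci of similar length had a median of 20 sites and 5 shared. Of the 9, 1 was higher in replicate 1. The median log2 difference was -1.17 as deposited and -1.50 after division by the library medians. Its highest site lay beyond the gene end at +210 kb, with 2.35 in replicate 1 and 4.62 in replicate 2, near a site of replicate 2 alone at +213 kb with 1.96. Upstream shared sites stood at -1.33 kb (1.00 and 2.24), at -5.81 kb in G630016G05Rik (1.28 and 2.56), at -10.3 kb (0.716 and 1.62) and at -35.6 kb (0.535 and 1.70). The intronic shared sites at +126 kb (0.555 and 1.62) and +170 kb (0.535 and 1.18) were likewise higher in replicate 2. The difference between the Meis1 and Meis2 loci was not tested.

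Among the vesicular glutamate transporters, Slc17a6 (chromosome 7, 51622006 to 51671119, plus strand) had 10 sites: 5 shared and 5 in replicate 2 alone. All shared sites but the one at +72.7 kb (0.426 and 0.239) lay at the start or overlapped coding exons just after it. Next to the start peak, a second start site at +0.355 kb had 0.471 and 0.738, and sites in coding exons at +3.42 kb and +5.27 kb followed, with 0.529 in replicate 1 and 0.612 in replicate 2 at the first and 0.639 and 0.732 at the next. None of these reached 1. At the start peak neither of the 2 footprints of replicate 1 overlapped one of replicate 2, nor did the single footprint at +0.355 kb.

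Slc17a7 (chromosome 7, 45163949 to 45176142, plus strand) lies among many genes: 8 of its 18 sites were at other genes' starts, among them that of the ribosomal protein gene Rpl13a (3.03 and 10.9). Of the sites away from other genes' starts, 3 were shared. The highest was at -1.73 kb, between Pih1d1 and Slc17a7, with 3.36 in replicate 1 and 6.30 in replicate 2, against 0.659 at its start in replicate 2 alone. The others were at +18.4 kb (1.30 and 2.43), nearer to the start of Pth2, 1099 bp away, and inside Ccdc155 at +34.7 kb (1.60 and 1.61), nearer to the start of that gene, 6152 bp away. No site lay in the gene body beyond the start. Of the 5 sites of replicate 1 alone, 4 lay inside Tead2 with 0.129 to 0.187. The forebrain cortex markers, of which 4 of 7 were open in replicate 1 and 7 of 7 in replicate 2, belong to a tissue that also uses this gene, and their part in its values was not tested. The central 300 bp of the upstream site, chr7:45162071-45162370, are shown as the strongest place near this gene that is no annotated coding start.
Slc17a7 upstream, -1.73 kb: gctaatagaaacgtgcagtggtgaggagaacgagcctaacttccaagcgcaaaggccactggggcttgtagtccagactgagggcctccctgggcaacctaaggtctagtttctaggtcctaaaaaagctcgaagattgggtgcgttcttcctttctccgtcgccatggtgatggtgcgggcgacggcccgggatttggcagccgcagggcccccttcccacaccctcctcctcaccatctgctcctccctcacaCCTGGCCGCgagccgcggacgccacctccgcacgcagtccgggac
The T-box letters AGGTGTGA stand in reverse complement, TCACACCT, at bases 251 to 258, outside the central 200 bases, with 3 bases in capitals.

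Of the genes listed for the glutamatergic nuclei, 3 of 6 had start peaks in both libraries (all genes 58.9%) and 4 in each library (all genes 59.9% in replicate 1 and 65.0% in replicate 2). Lhx2, a LIM-homeodomain factor that is also a forebrain cortex marker here, had 0.961 and 5.00, its relative Lhx9 had 0.685 in replicate 2 alone, and the homeodomain factor Irx3 had 0.793 in replicate 1 alone. Of the genes listed for unipolar brush cells, 5 of 6 had start peaks in both libraries (all genes 58.9%), among them the phospholipase gene Plcb4 with 1.14 and 1.24. Otx2, a homeodomain factor, had none in either library.

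Calb2 (chromosome 8, 110137502 to 110168210, minus strand) had 17 sites: 6 shared, 2 in replicate 1 alone and 9 in replicate 2 alone. Of the shared ones, 1 lay at the start of Cmtr2, with 5.73 and 15.6. Beyond the gene's own start, shared sites stood at +37.5 kb, past the gene end (2.07 and 3.09), at +22.5 kb on the edge of an exon (1.07 and 1.43), at -9.3 kb (0.910 and 1.16) and at +48.3 kb (0.793 and 0.565). The sites at +37.5 and +48.3 kb lay nearer to the start of Gm21964, 20829 and 10074 bp away. Upstream peaks of replicate 2 alone at -9.73, -14.8 and -21.3 kb had 1.06, 0.718 and 0.978. The start stretch, chr8:110168211-110168380, is shown because all 3 footprints of replicate 1 in it overlapped footprints of replicate 2.
Calb2 start: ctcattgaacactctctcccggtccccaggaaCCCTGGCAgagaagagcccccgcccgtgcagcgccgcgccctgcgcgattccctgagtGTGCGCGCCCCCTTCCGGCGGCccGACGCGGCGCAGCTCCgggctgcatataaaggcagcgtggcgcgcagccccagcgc
The stretch ends at the base before the start. It holds TATAAA at bases 139 to 144, with 26 bases after it, and those letters were in 3.84% and 6.71% of all peak windows. In the second run of capitals, GCCCCCTTCCGG at bases 97 to 108 is a reverse match to the CTCF core.

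In the peaks of the 9 loci, replicate 1 had 122 footprints and replicate 2 had 247, and their median width was 9 bp in both. Of the replicate 1 footprints, 56 (45.9%, genome 56.3%) overlapped one of replicate 2, and of the replicate 2 footprints 55 (22.3%, genome 23.3%) overlapped one of replicate 1. In each library 3 had the same ends as in the other. At least 1 footprint was in 56 of 78 peaks of replicate 1 (71.8%, genome 75.3%) and in 98 of 112 of replicate 2 (87.5%, genome 76.1%). By gene the numbers ran between 2 at Olig3 and 36 at Slc17a7 in replicate 1, and between 5 at Olig3 and 50 at Meis2 in replicate 2.

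**Figure D4:**
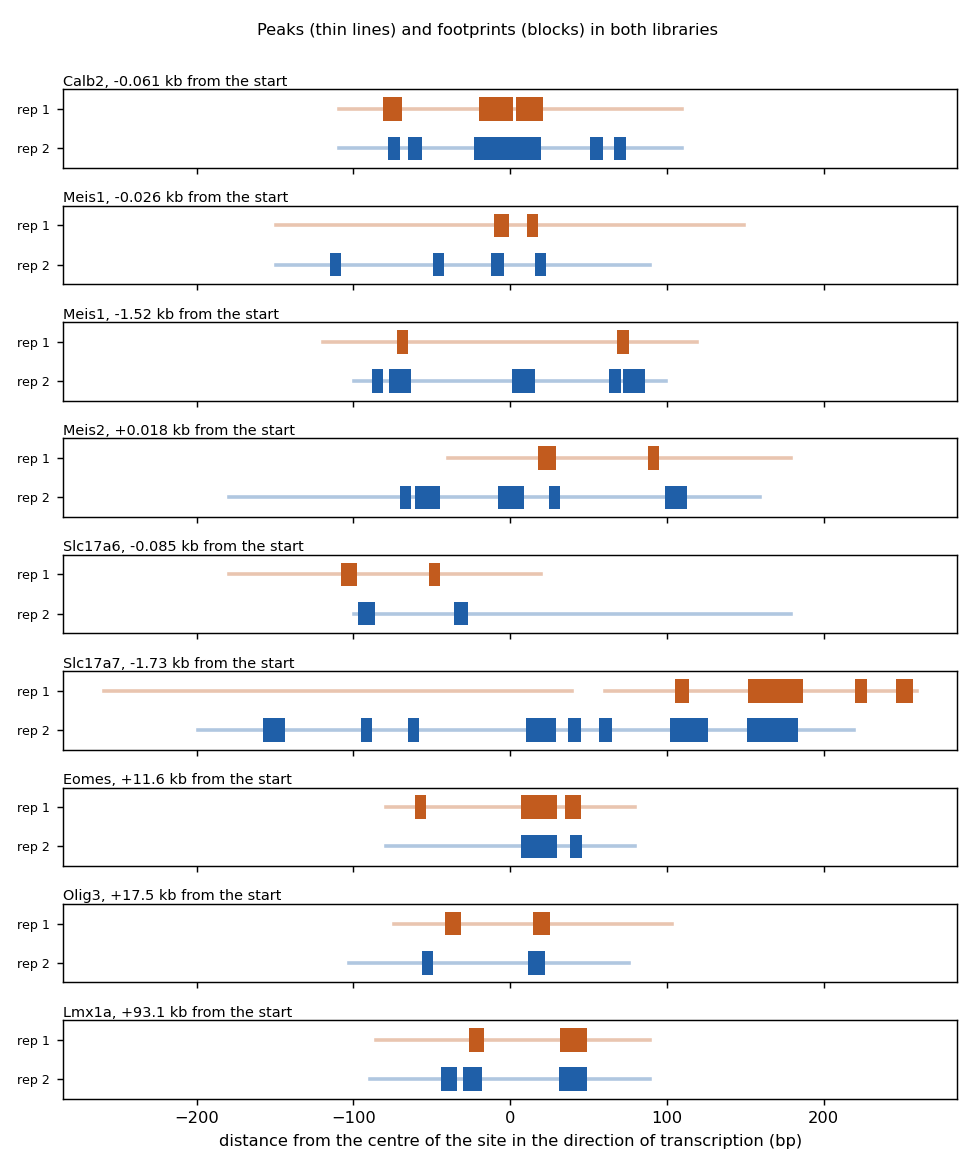
Peaks (thin lines) and footprints (blocks) of replicate 1 and replicate 2 at shared sites of the genes, by distance in bp from the centre of the site in the direction of transcription. The longest block at the Eomes site has the same ends in both libraries, and no blocks coincide at the Slc17a6 start.

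CAGCTG was in the central 200 bp of 28 of 135 sites (20.7%), the Meis letters TGACAG in 24 (17.8%), the CTCF core in 23 (17.0%) and TATAAA in 10 (7.41%). TAATTA, a homeodomain core, and TGANTCA, an AP-1 site, were in 5 each (3.70%), and the E-box CATATG in 3 (2.22%). Over all peak windows TGACAG was in 13.9% and 15.8%, CATATG in 2.32% and 4.01%, TAATTA in 1.86% and 3.68%, and TGANTCA in 4.11% and 5.75%.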

How the data were processed

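DNase-seq peaks, footprints and false discovery rates of 2 libraries were used as deposited, which the authors called on mm10 library by library, per their description files. Peak values are the signal column of the deposited lists, normalised for depth by the authors with a factor not given in the sources used here, as are aligner, caller and versions. Values were whole multiples, within 0.05 steps, of 0.00645 in replicate 1 and 0.00665 in replicate 2, but the depth in reads is not known. The q-value is the authors' deposited false discovery rate per interval, listed under 0.05. Deposited footprints carry 0.01 on every line, a constant with no score, so positions alone were used.

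Coding starts and gene names came from the GENCODE vM21 annotation of GRCm38 and bases from the RefSeq copy of its C57BL/6J sequence. The less strict list was the main one, and sites are peaks of either library merged where they overlap by at least 1 bp. Shares over all 21670 coding genes, all peaks or all sites are given for comparison with the counts of start peaks, shared peaks and footprints. The 9 genes were named in full, and the first 3 of each lineage list, except some items that are not reported here. The genes and lists were chosen with earlier results of these data known, and the CTCF, TATA and RFX letters and some printed stretches after values were seen. The labels call the libraries biological replicates, and SDs over 2 libraries measure only their spread. Python 3.11.15, pandas 2.3.3, numpy 2.4.6, scipy 1.17.1 and matplotlib 3.10.9 were used. The overlap code was tested on simulated peaks.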

Additional observations from a re-analysis of the deposited data

How the results depend on the processing

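With a start window of 2000 bp in place of 500 bp, 7 genes had peaks in both libraries in place of 4 (all genes 62.2%), with Lmx1a, Tbr1 and Slc17a7 added. With 1 library left out, the count ran from 4 to 7. The number of peaks, 190, was 105 on the stricter list and 65 in the gene bodies alone, and 78 to 112 with 1 library left out. The share of replicate 1 peaks found in replicate 2, 67.9%, was 48.7% where each peak had to cover 50% of the other. No genome share under that rule is given here. With replicate 2 cut to its strongest peaks, in equal number to replicate 1, the share was 57.7% (genome 60.8%). The same cut left 4 genes open at their start in both libraries (all genes 56.3%) and 1 in replicate 2 alone (all genes 2.51%). Requiring the same ends for footprints left 6 of 369. The median log2 difference stayed negative: -0.62 on the stricter list, -0.42 with the 50% overlap and -0.68 after scaling each library by its median, which lowers all differences by 0.33. That scaling turned the sign at the Slc17a6 start (-0.08) and of the Meis1 median (-0.18), but it is not shown to correct for depth. No paired analysis was possible because there is 1 group. Cut numbers are not known, so an absent peak in replicate 1, with fewer peaks, is not shown to be closed chromatin.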
